A study of Mus musculus with 4 samples.

Results

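Ccl2, Ccl7, Ccl8, Ccl11 and Ccl12 are secreted CC chemokines that draw monocytes and eosinophils out of the blood. They were followed here across the cell types of mouse back skin. The members were the 5 rows of the count table whose symbol is one of these names, of 27998 genes in all, and each of the 5 was found once. Droplet-based 3′ RNA sequencing of single cells was done on FACS-sorted cells of CD1 mice aged 7 to 8 weeks, in 4 libraries, 1 for each group. Control skin was left untreated or given imiquimod, and so was skin labelled Ovol1 null. Imiquimod activates Toll-like receptors and is used to model psoriasis-like inflammation, and had been given per the labels as 1 dose of 62.5 mg of 5% cream on the shaved back. The labels give neither the sort gate, the number of mice per library nor which part of Ovol1 is deleted. After filtering, 22409 cells remained of 23455 barcodes.

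Among these chemokines Ccl2, Ccl7 and Ccl12 act mainly through the receptor Ccr2, which brings classical monocytes from bone marrow into tissue. Mouse Ccl8 is also known as a ligand of Ccr8 on T cells, and Ccl11, or eotaxin, acts through Ccr3 on eosinophils. Ccl2 and Ccl7 are typical targets of NF-kB after tumour necrosis factor or interleukin 1, Ccl11 is known from type 2 inflammation and resting stroma, and Ccl12 and Ccl8 are made largely by mononuclear phagocytes. Atypical receptors such as Ackr1 and Ackr2 bind these ligands without classical signalling and move or remove them.

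Every value below is a level in UMIs, the count of distinct transcript molecules, divided by all UMIs of the same cell class in the same library and scaled to a total of 1000000 (CPM). One 3′ tag stands for 1 molecule whatever the length of the gene, so length does not bias a comparison of members. Differences between genes in capture or mapping were not checked. Brackets hold 95% intervals, exact Poisson for a level, exact conditional binomial for a ratio and Clopper-Pearson for a share of cells. All of them cover counting error only. With 1 library per group there was no replicate and no test, and every difference is one between 2 single libraries. The 4 comparisons share libraries with one another and are given side by side. A gene needed 20 or more UMIs in the pair of libraries to be measured, and a difference of 2-fold or more to be called higher or lower.

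The kept libraries held 6066 and 5576 cells for the control pair and 5214 and 5553 for the labelled-null pair. Depth was uneven: the labelled-null imiquimod library had a median of 8394 UMIs per cell against 4759.5 to 5706.5 in the others. Of all barcode sequences 267 occurred in more than 1 library. Ovol1 itself was read at 30.4, 36.5, 42.9 and 99.3 CPM in keratinocytes of control untreated, control imiquimod, labelled-null untreated and labelled-null imiquimod skin. A 3′ tag outside a deleted part does not check a genotype, so those 2 libraries are called labelled null throughout, and the order just used is kept below. Cell classes were named from marker genes. Fibroblasts carried 8 of 8 of theirs (in 1 of their 8 clusters 7 of 8), macrophages or monocytes 10 of 10, T or NK cells 6 of 6 and mural cells 7 of 9, and these 4 classes had at least 50 cells in every library. Fibroblasts of different libraries fell largely into different clusters, which is described below. The macrophage or monocyte class was cluster 6, led by Cd74, Lyz2 and H2-Aa, and it also carried 4 markers of the Langerhans list. No cluster was named dendritic, although a dendritic list was used. Whether the mix of cells in this class differed between libraries was not tested. Clustered alone, the labelled-null imiquimod library had no macrophage cluster. An eosinophil-like cluster carried 3 of 7 of its markers (Siglecf, Ccr3 and Il5ra, but not Prg2, Epx, Ear1 and Ear6). It held 29, 5, 5 and 0 cells.

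All 5 genes are protein-coding, lie on the plus strand and neighbour one another within 81.2 kb of chromosome 11 (GRCm38, GENCODE M21). Ccl2 (ENSMUSG00000035385) occupies chr11:82035571-82037453, Ccl7 (ENSMUSG00000035373) chr11:82045712-82047525 and Ccl11 (ENSMUSG00000020676) chr11:82057823-82062955. After a gap of 38.9 kb follow Ccl12 (ENSMUSG00000035352) at chr11:82101845-82103400 and Ccl8 (ENSMUSG00000009185) at chr11:82115185-82116799. The other gaps measured 8.26 kb, 10.3 kb and 11.8 kb. The longest run of identical bases between transcripts of any 2 members was 23 bases, between Ccl2 and Ccl7.

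Promoter windows, from 250 bases before to 50 bases after the start, were found in RefSeq (GRCm38.p6) for Ccl8 and Ccl12, the members with the highest levels in macrophages relative to fibroblasts in control untreated skin. Windows of 30 bases are shown because the neighbouring pair share 2 short motifs at nearly the same distance. Capitals mark TATAAAAG, a TATA box, which begins at -32 in Ccl8 and -31 in Ccl12 relative to the start, at chr11:82115142-82115171 and chr11:82101803-82101832.
Ccl8 near the start: tccctgctcccTATAAAAGgcagattagag
Ccl12 near the start: tctttgtgtctTATAAAAGtcagatggaac
In the next pair capitals mark GGAAATC, which begins at -128 in both genes, at chr11:82115046-82115075 and chr11:82101706-82101735.
Ccl8 upstream: tccagctgccgGGAAATCatctcatgatct
Ccl12 upstream: tctggctgagaGGAAATCacccctggggtc
Both motifs were chosen after these windows had been seen. Searched on both strands, TATAAAAG occurred in 560 (1.71%) and GGAAATC in 1306 (3.98%) of all 32851 windows. An NF-kB motif (GGG, 2 bases of any kind, then TTTCC; 1.63% of all windows), an interferon element (GAAA, 2 bases of any kind, then GAAA; 3.44%) and the AP-1 motif TGANTCA (7.81%) were not in either window. A match or its absence describes letters only and says nothing of a bound factor.

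Fibroblasts were the main source of 4 of the 5 members. Of all Ccl11 UMIs in a library, 94.4% to 96.7% lay in fibroblasts, and for Ccl7 the share was 79.1% to 91.2%, for Ccl2 71.1% to 90.6% and for Ccl8 66.1% to 89.8%. Ccl12 was the exception: 95.7%, 80.7%, 64.7% and 89.4% of its UMIs lay in macrophages or monocytes, which made up 63 to 212 cells per library. Macrophages added a further 21.1% and 24.2% of Ccl8 in the control libraries and 5.34% and 5.80% in the labelled-null libraries. Most transcripts thus lay in stromal cells for the eotaxin and for Ccl2 and Ccl7, and in myeloid cells for Ccl12. Shares of a library move with how many cells of a class were sorted.

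**Figure D1:**
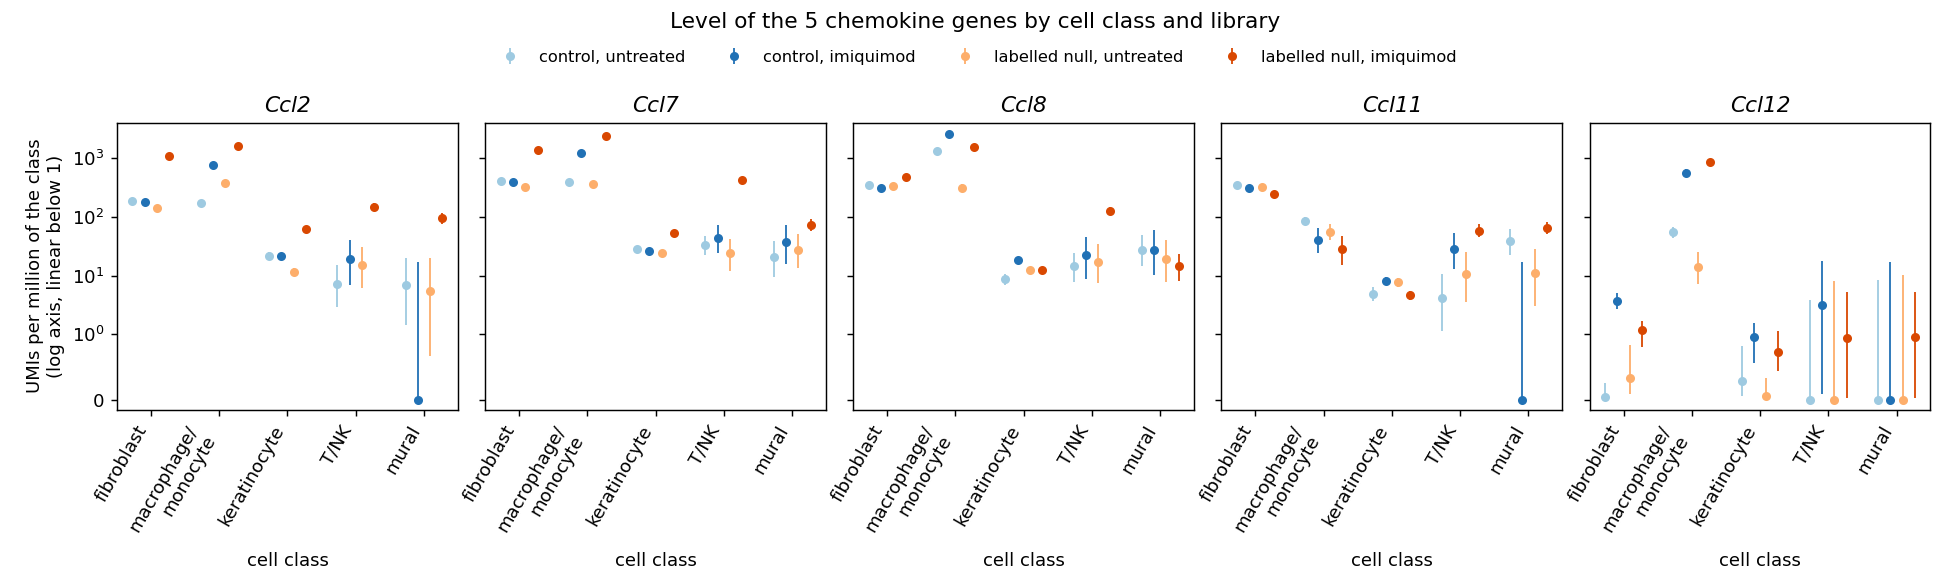
Level of each chemokine (UMIs scaled to 1000000 of the class, log axis that is linear below 1) in 5 cell classes, 1 point per library with its 95% Poisson interval. Fibroblasts and macrophages or monocytes stand above keratinocytes for all 5 genes except Ccl12, which stands out in macrophages only, and Ccl2 and Ccl7 are highest in the labelled-null imiquimod library in both classes.

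Ccl2, the main ligand of Ccr2, was 186 CPM (181 to 192) in fibroblasts of control untreated skin and 179 CPM (171 to 187) with imiquimod. Labelled-null fibroblasts had 142 CPM (136 to 149) untreated and 1102 CPM (1089 to 1115) with imiquimod. The first 3 libraries lay within a narrow band and the fourth stood far above them. Imiquimod against untreated gave a ratio of 0.958 (0.906 to 1.01) in control and 7.75 (7.38 to 8.14) in labelled-null fibroblasts. Under imiquimod the labelled null was 6.17-fold (5.89 to 6.47) above control.

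Ccl7, which is also recognised by Ccr1 and Ccr3, had the same order of libraries at higher levels: 403, 389.6, 325 and 1395 CPM. Its ratio was 0.966 (0.931 to 1.0) for imiquimod in control and 4.29 (4.15 to 4.44) in labelled-null fibroblasts. The labelled null exceeded control 3.58-fold (3.47 to 3.70) under imiquimod. Ccl8 differed less, with 356, 309, 334 and 482 CPM. Only in the labelled-null imiquimod library was Ccl8 above the others, by 1.44-fold (1.39 to 1.5) against its untreated library and 1.56-fold (1.5 to 1.62) against control imiquimod, both short of 2-fold.

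Ccl11, the eosinophil attractant, was not higher in the fourth library. Its fibroblast levels of 349, 317, 322 and 246 CPM were lowest in the labelled-null imiquimod library, where the ratio to labelled-null untreated was 0.765 (0.735 to 0.797) and to control imiquimod 0.776 (0.744 to 0.810). That library also had the lowest TMM scaling factor among fibroblasts (0.888, against 1.02 to 1.06). With that factor the log2 ratio of Ccl11 went from -0.39 to -0.13 and that of Ccl2 from 2.95 to 3.21 in the first of these comparisons. Ccl12 was close to absent from fibroblasts, with 1, 39, 4 and 30 UMIs (0.0453, 3.74, 0.329 and 1.19 CPM) and never more than 2 in 1 cell. Its ratio of 82.7 (14.0 to 3350) for imiquimod in control rests on a single UMI in the untreated library.

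Counted over the 5 members, fibroblasts had 1 of 5 higher and 0 lower for imiquimod in control (Ccl12), where 10.1% of 12596 genes were higher and 10.6% lower. In the labelled null 3 of 5 were higher (Ccl2, Ccl7 and Ccl12), against 5.53% of 12588 genes, and none was lower, against 17.1%. Ccl12 is counted in both although it was close to absent from fibroblasts. It had 1 and 39 UMIs in the control pair and 4 and 30 in the labelled-null pair. Labelled null against control in untreated skin gave 0 higher and 0 lower of 4 measured members, against 4.93% and 1.4% of 12697 genes. Under imiquimod 2 of 5 were higher (Ccl2 and Ccl7) and 1 lower (Ccl12), against 5.07% and 14.2% of 12342 genes. Median log2 ratios of the members were -0.06, 1.85, -0.22 and 0.64 in these comparisons, beside medians of all genes of -0.00074, -0.24, 0.016 and -0.20. The 1.85 is the ratio of Ccl12 itself and so rests on 4 and 30 UMIs.

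The mixture of chemokines within fibroblasts was nearly the same in 3 libraries and different in the fourth. Of the UMIs of all 5 members, Ccl2 made up 14.4%, 14.9% and 12.7% and Ccl11 27.0%, 26.5% and 28.6% in the first 3 libraries. In labelled-null imiquimod fibroblasts Ccl2 made up 34.2%, Ccl7 43.2%, Ccl8 14.9% and Ccl11 7.63%. The summed level of the 5 was 1295, 1198, 1123 and 3226 CPM.

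**Figure D2:**
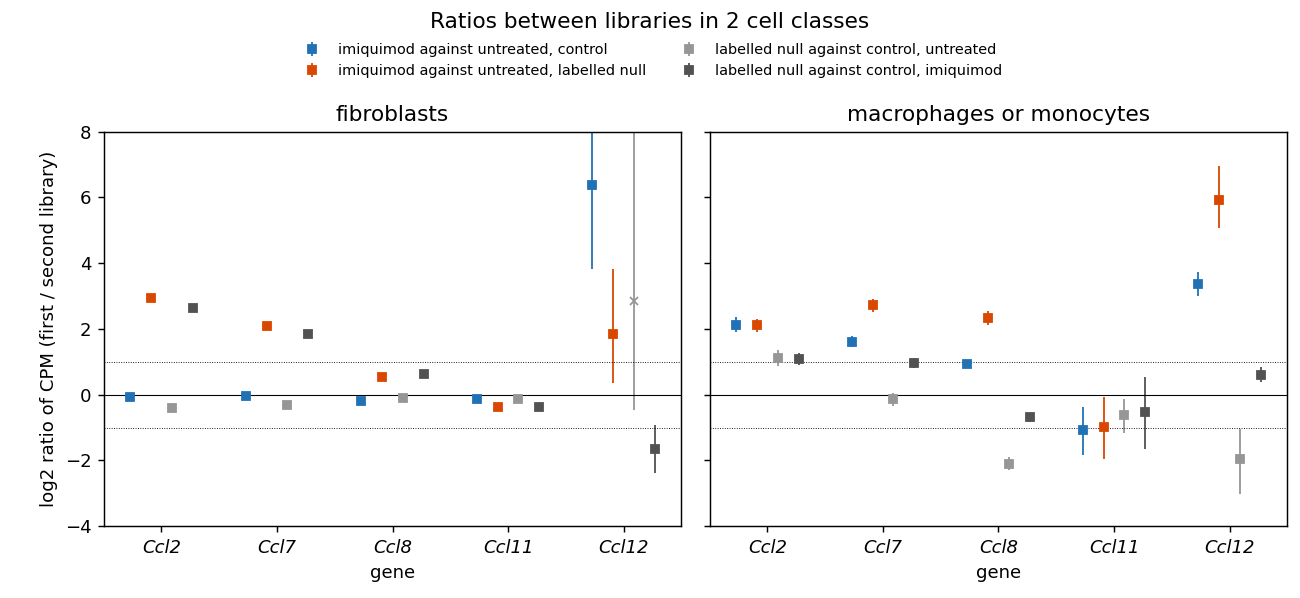
Log2 ratio of CPM for each chemokine in the 4 comparisons, in fibroblasts (left) and macrophages or monocytes (right), with 95% counting intervals, crosses for genes under 20 UMIs and dotted lines at 2-fold; intervals of fibroblast Ccl12 run off the axis. In fibroblasts Ccl2 and Ccl7 lie near 0 for imiquimod in control and above 2 in the labelled null, and in macrophages Ccl12 is highest for imiquimod in both genotype labels.

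Levels over a class can come from few cells or many. In control untreated fibroblasts the highest 1% of cells (33 cells) held 41.0% of all Ccl2 UMIs, and the highest 10% held 95.9%. The corresponding shares for the top 1% were 33.4% for Ccl7, 16.4% for Ccl8 and 7.53% for Ccl11. Ccl2 was thus concentrated in a small set of strongly positive cells and Ccl11 was spread over the class. This order of the 4 genes held in the control imiquimod and labelled-null untreated libraries too, where the top 1% held 51.8% and 54.3% of Ccl2 but 9.80% and 9.54% of Ccl11.

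In labelled-null imiquimod fibroblasts the top 1% held 17.5% of Ccl2, 12.3% of Ccl7, 13.9% of Ccl8 and 13.4% of Ccl11. Cells with at least 10 Ccl2 UMIs numbered 123 (3.75%), 47 (2.0%), 47 (2.40%) and 625 (20.1%) in the 4 libraries. For Ccl7 they numbered 199 (6.06%), 96 (4.09%), 95 (4.85%) and 922 (29.6%). More cells were positive in the fourth library, and it was also the deepest in sequencing, at a median of 8024.5 UMIs per fibroblast against 6750, 4380 and 6218.5.

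With every cell thinned to 1000 UMIs, Ccl2 was seen in 7.28%, 6.47%, 4.90% and 29.1% of fibroblasts, and without thinning in 15.1%, 13.5%, 13.3% and 59.0%. Keratinocytes, given for comparison and not free of cells with high Ccl2, gave 1.37%, 1.37%, 0.737% and 3.26% after thinning and 5.12%, 5.43%, 4.27% and 29.1% before it, at medians of 5050, 5508, 5659 and 13837 UMIs. Thinned shares for Ccl7 in fibroblasts were 12.2%, 14.1%, 13.1% and 45.2%, and unthinned 31.5%, 31.9%, 29.7% and 79.4%, beside thinned shares of 2.01%, 3.08%, 2.47% and 5.07% in keratinocytes. For Ccl11 the thinned shares were 24.0%, 19.8%, 23.1% and 16.8%, and the unthinned ones 57.2%, 44.5%, 56.7% and 46.4%, beside 0.422% to 1.18% of thinned keratinocytes. The difference in the share of Ccl2 and Ccl7 positive fibroblasts was present at equal depth.

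Ccl2 and Ccl7 were found in the same fibroblasts more often than their separate frequencies give. The number of cells with both, over the number given by the product of the 2 shares, was 1.80, 1.81, 1.98 and 1.10, and 3.93, 3.54, 4.21 and 1.51 after thinning to 1000 UMIs. This ratio has a lower ceiling where a gene is in most cells, as Ccl7 was in the fourth library. Of unthinned Ccl2 positive cells, 56.9%, 57.9%, 58.8% and 87.7% had Ccl7. For Ccl2 with Ccl8 the ratio was 1.11, 1.09, 1.18 and 1.05, and 1.04, 1.09, 1.56 and 1.10 after thinning. Deep cells show any 2 genes together more often, and these ratios are descriptions of single libraries.

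**Figure D3:**
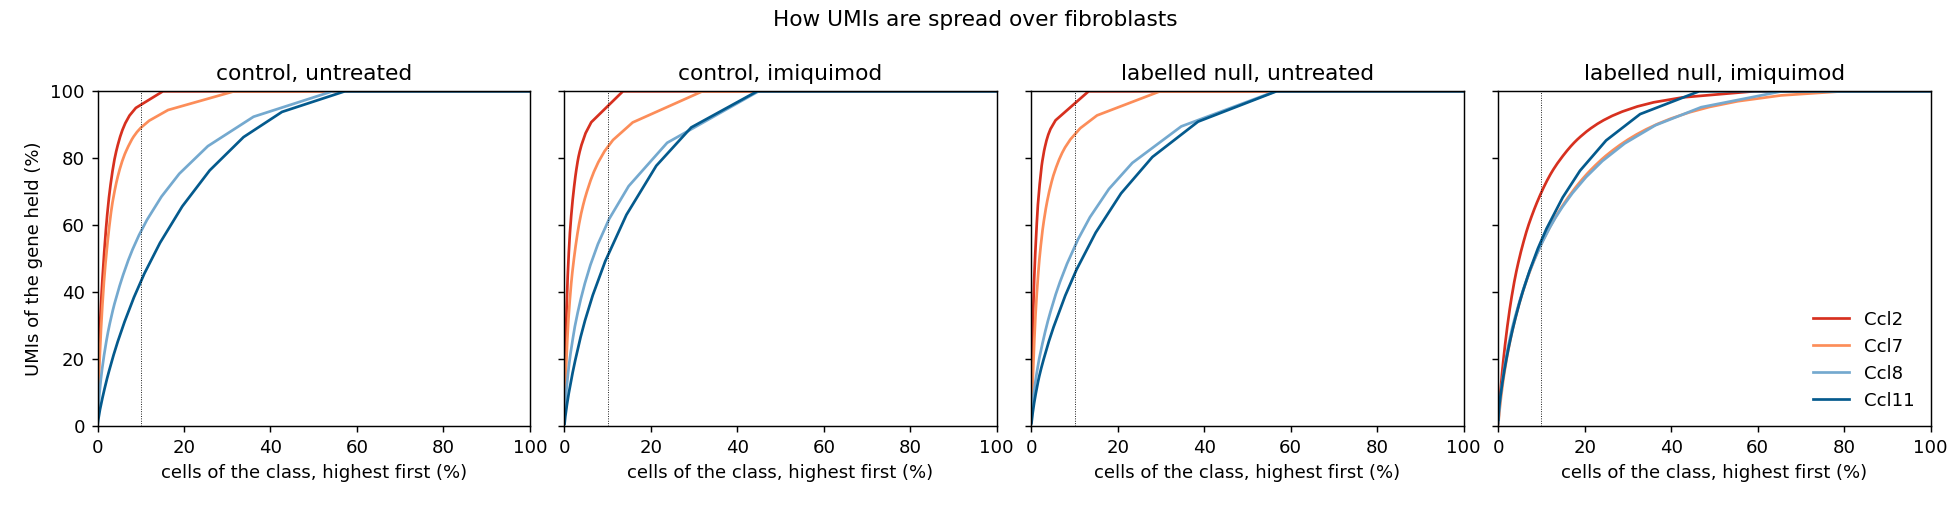
Share of each gene's UMIs (vertical axis, %) held by the highest cells of the fibroblast class (horizontal axis, % of cells, highest first), 1 panel per library, with a dotted line at 10% of cells. In 3 libraries Ccl2 and Ccl7 climb steeply, with 95.5% to 96.3% of Ccl2 in the top 10% of cells, and in labelled-null imiquimod skin the share is 69.9%.

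Fibroblast clusters differed in which chemokine they carried. Clusters had been made from all variable genes, so levels among them are descriptions. Cluster 0 (led by Col1a1, Col1a2 and Sparc) was the largest of untreated skin. It had 470.4 and 409 CPM of Ccl11 in control and labelled-null untreated skin, with only 27.4 and 47.3 CPM of Ccl2. Cluster 10 (Col1a1, Clec3b and Sparc; 627 and 311 cells) had nearly the same Ccl11, at 468 and 386 CPM, but Ccl2 at 629 and 467 CPM and Ccl7 at 1457 and 1055 CPM.

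The summed level of 13 NF-kB induced genes (Nfkbia, Cxcl1, Il6 and others) was 2575 and 2453 CPM in cluster 10, against 625 and 663 CPM in cluster 0. The 14 immediate early genes, which tissue dissociation can also induce, were likewise higher in cluster 10, at a sum of 29118 and 29663 CPM against 13203 and 12516 CPM, and their part in it was not tested. Cluster 3 (Gpx3, Clec3b and Meg3) carried the most Ccl8 of untreated skin, at 688 and 522 CPM. Cluster 4 (Igfbp3, Crabp1 and Dkk2) was low in all, with 30.4 and 12.6 CPM of Ccl2, 22.6 and 17.3 of Ccl8 and 73.0 and 73.8 of Ccl11. Its immediate early genes summed to 30019 and 26303 CPM, near the sums of cluster 10. In cluster 3 they summed to 20738 and 20605 CPM.

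Under imiquimod nearly all fibroblasts lay in other clusters. Cluster 27 (Ccl19, Dcn and Cyp2f2) held 2153 of 2348 control imiquimod fibroblasts at 159 CPM of Ccl2, 374 of Ccl7, 320.3 of Ccl8 and 331 of Ccl11. Cluster 28 (Saa3, Pla2g2e and Saa1) held 2561 of 3116 labelled-null imiquimod fibroblasts at 1103, 1421, 502 and 260.0 CPM of the same genes. Cluster 26 (Saa3, Coch and Ctla2a) held cells of both imiquimod libraries, 146 control and 525 labelled-null cells. Within it Ccl2 was 244 CPM (200.2 to 295) in control and 1138 (1104 to 1172) in labelled-null cells, and Ccl8 81.3 and 387 CPM, Ccl7 502 and 1298 CPM, and Ccl11 72.3 and 167 CPM. In this shared cluster all 4 chemokines, Ccl11 included, were higher in the labelled-null cells, whereas over the whole class Ccl11 was lower.

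**Figure D4:**
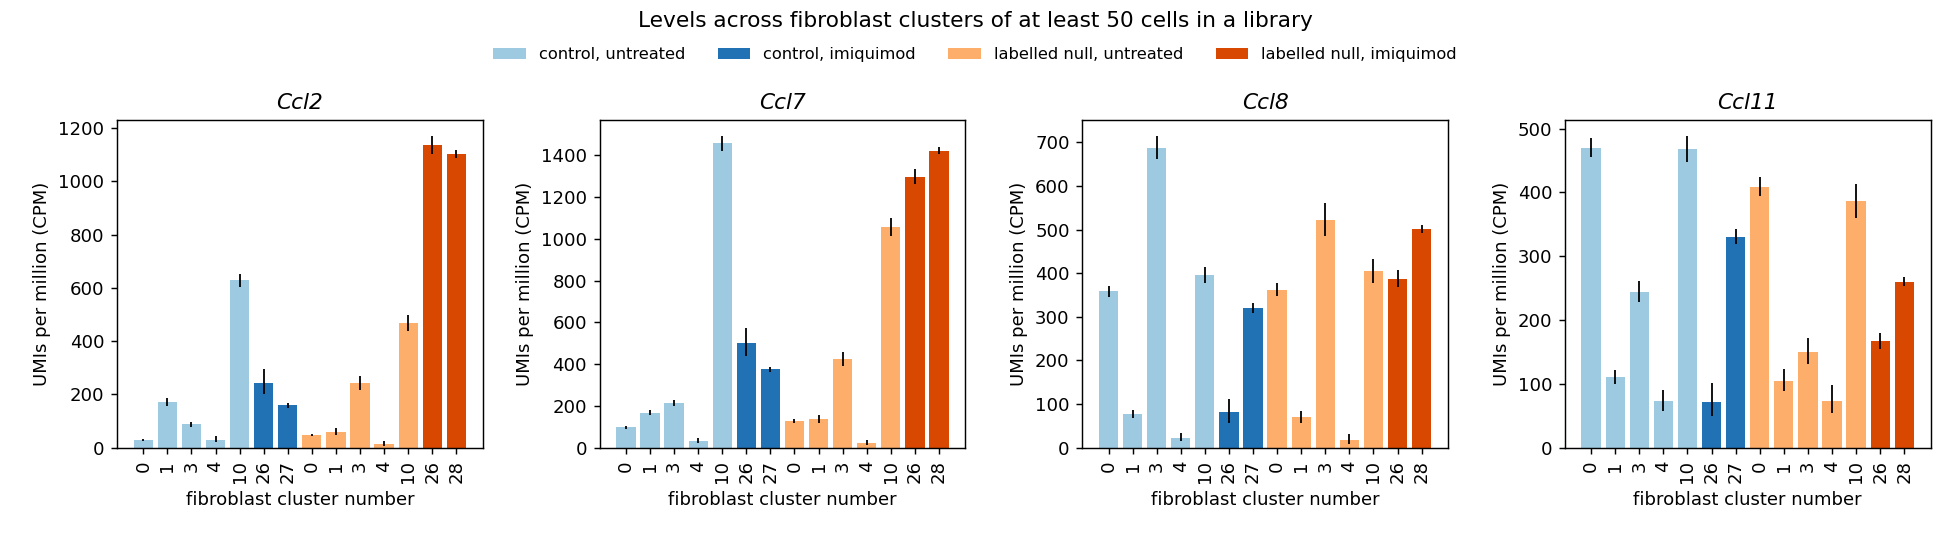
Level (UMIs scaled to 1000000, bars from 0, with 95% Poisson intervals) of Ccl2, Ccl7, Ccl8 and Ccl11 in each fibroblast cluster with at least 50 cells in a library, colours for libraries. Ccl2 and Ccl7 are high in cluster 10 of untreated skin and in clusters 26 and 28 of labelled-null imiquimod skin, while Ccl11 is highest in clusters 0 and 10.

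Macrophages or monocytes were the class with the highest Ccl12, a Ccr2 ligand that is found in mouse and not in human. Control macrophages had 55.3 CPM (44.3 to 68.1) untreated and 571 CPM (504 to 644) with imiquimod. Labelled-null macrophages had 14.3 CPM (7.12 to 25.5) untreated and 869 CPM (789 to 955) with imiquimod. Both imiquimod libraries lay above both untreated ones. Imiquimod against untreated gave 10.3-fold (8.08 to 13.3) in control and 60.9-fold (33.7 to 123) in the labelled null, from 88 to 264 and 11 to 431 UMIs. In the untreated pair the labelled null was 3.88-fold (2.06 to 8.05) lower, but 3 of 212 control cells held 69.3% of their UMIs. Without the highest 1% of cells that log2 ratio was -1.13, beside -1.96 with them.

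The share of macrophages with a Ccl12 UMI was 8.02%, 34.1%, 5.61% and 44.4%, and 4.25%, 22.0%, 3.74% and 28.6% after thinning. Fibroblasts gave 0.0305% to 1.62% unthinned and at most 0.341% thinned. Median depths of macrophages were 6210.5, 4383.5, 5484 and 6824 UMIs. A single labelled-null imiquimod cell held 156 of the 431 UMIs (36.2%). Without the highest 1% of cells the log2 ratio for imiquimod in the labelled null was 6.18, beside 5.93 with them, and in control 4.82 beside 3.37.

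Ccl8 was the most abundant member in control macrophages. Its levels were 1349, 2554, 315 and 1583 CPM, so the labelled-null untreated library stood apart at the low end. There Ccl8 was 4.28-fold (3.75 to 4.91) below control untreated. Imiquimod gave 1.89-fold (1.76 to 2.03) in control and 5.02-fold (4.34 to 5.82) in the labelled null. The Ccl8 of control untreated macrophages rested on few cells: 3 of 212 held 38.1% of 2147 UMIs and 1 cell held 307. Cells with at least 10 Ccl8 UMIs numbered 29 (13.7%), 19 (23.2%), 8 (7.48%) and 12 (19.0%), and their shares had the order of the levels. Without the highest 1% of cells the log2 ratio of labelled null against control in untreated skin was -2.04, beside -2.10 with them.

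Ccl2 in macrophages was 175, 761, 376 and 1617 CPM, and Ccl7 was 400.3, 1224, 363 and 2383 CPM. For both genes imiquimod libraries lay above untreated ones under both labels. Imiquimod against untreated gave 4.36-fold (3.71 to 5.12) for Ccl2 and 3.06-fold (2.73 to 3.43) for Ccl7 in control. In the labelled null it gave 4.30-fold (3.75 to 4.94) and 6.56-fold (5.76 to 7.50). Labelled null against control gave 2.15-fold (1.82 to 2.55) for Ccl2 untreated and 2.12-fold (1.87 to 2.41) under imiquimod, and 1.95-fold (1.76 to 2.16) for Ccl7 under imiquimod. Without the highest 1% of cells the Ccl2 ratios of these comparisons fell short of 2-fold, at log2 ratios of 0.96 and 0.85.

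Counted over members, macrophages had 3 of 5 higher (Ccl2, Ccl7 and Ccl12) and 1 lower (Ccl11) for imiquimod in control, where 6.39% of 7319 genes were higher and 12.0% lower. In the labelled null 4 of 5 were higher (all but Ccl11), against 12.1% of 5579 genes, and 0 lower, against 10.2%. Labelled null against control in untreated skin had 1 higher (Ccl2) and 2 lower (Ccl8 and Ccl12), against 3.08% and 6.93% of 7819 genes. Under imiquimod it had 1 higher (Ccl2) and 0 lower, against 8.52% and 6.24% of 4649 genes. The members' median log2 ratios were 1.61, 2.33, -0.63 and 0.61, beside -0.029, 0.11, -0.036 and 0.091 for all genes.

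Fibroblast transcripts were present in the macrophage class, and their amount differed between libraries. The 8 fibroblast markers summed to 34137, 8184, 15487 and 11122 CPM in macrophages, with none of the 8 at 0, and to 126280, 48505, 107510 and 45344 CPM in fibroblasts. The 10 macrophage markers summed to 31.8 to 94.6 CPM in fibroblasts and 5458 to 7890 CPM in macrophages. Macrophages were therefore divided at 1% of UMIs from fibroblast markers, a limit set after these sums had been seen. Below it lay 138, 68, 89 and 47 cells. The markers summed lower in fibroblasts of both imiquimod libraries, so the same limit lets a larger share of fibroblast RNA pass there.

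In untreated skin most Ccl11 of the class lay in the macrophages above the limit. Its level was 7.23, 15.1, 5.00 and 5.95 CPM below the limit and 172, 107, 233 and 75.0 CPM above it, and 131 of its 137 UMIs in control untreated macrophages lay above. The lower Ccl11 of macrophages under imiquimod in control (2.09-fold, 1.29 to 3.59) became a log2 ratio of 1.06 below the limit, from 6 and 5 UMIs. Ccl8 and Ccl12 were higher below the limit, apart from Ccl12 in the labelled-null untreated library. Ccl8 was 1915, 3462, 330.1 and 2089 CPM below the limit and 733, 259, 263 and 519 CPM above it. Ccl12 was 101, 791, 13.3 and 1217 CPM below the limit and 5.25, 15.3, 17.5 and 138 CPM above it. The order of the 4 libraries for Ccl12 was the same in cells below the limit as in the class.

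**Figure D5:**
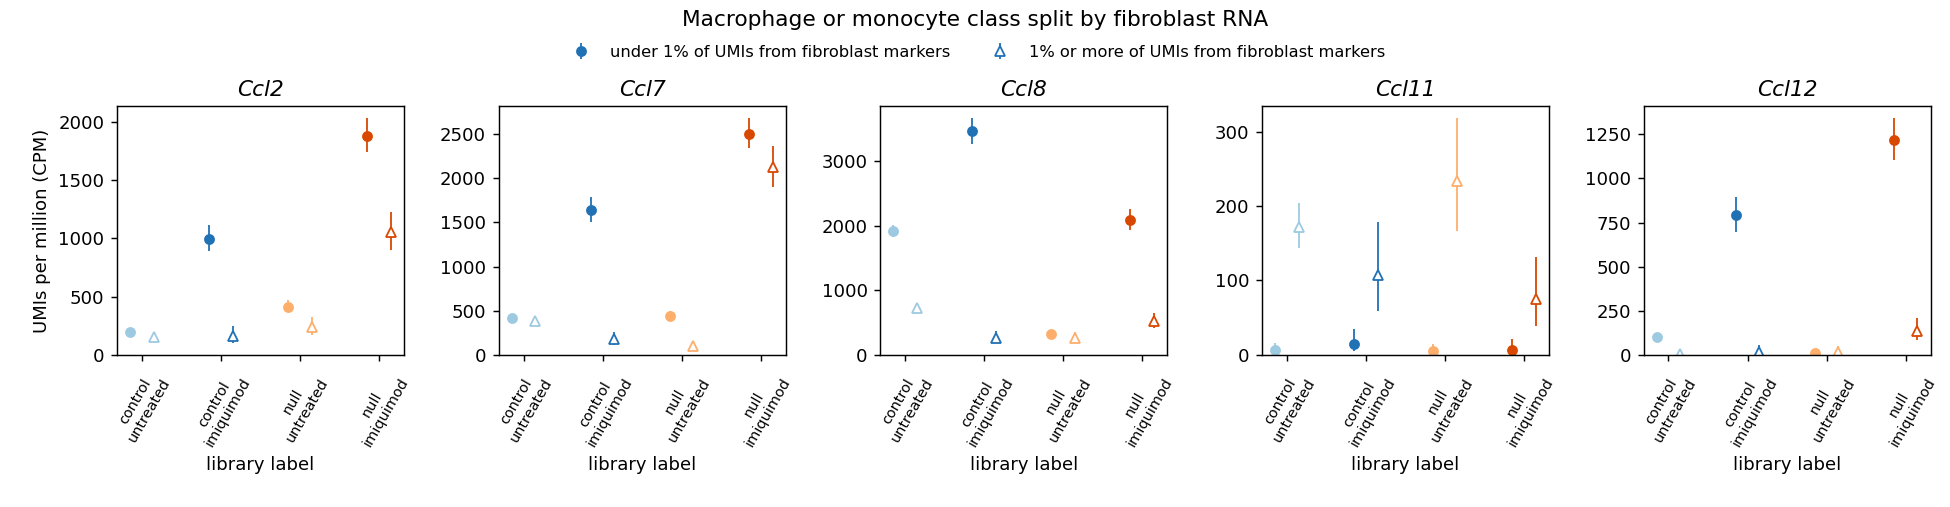
Level of each chemokine (UMIs scaled to 1000000, linear axes from 0, 95% Poisson intervals) in macrophages or monocytes with under 1% (filled circles) and 1% or more (open triangles) of UMIs from 8 fibroblast markers, by library. Ccl8 and Ccl12 are higher in cells below the limit in the control and labelled-null imiquimod libraries, and Ccl11 is higher in cells above it in all 4.

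Keratinocytes had low levels of all 5 members. Ccl2 was 22.0, 21.7, 11.8 and 61.8 CPM, Ccl7 28.2, 26.1, 24.0 and 53.8, Ccl8 8.69, 18.5, 12.5 and 12.3, and Ccl11 4.95, 8.13, 7.75 and 4.63 CPM. Ccl12 was 0.280, 0.967, 0.0601 and 0.737 CPM, from 3, 17, 1 and 18 UMIs. The mixture of members was not that of fibroblasts. In the labelled-null imiquimod library Ccl2 made up 46.4% of the 5 members in keratinocytes against 34.2% in fibroblasts, and Ccl8 9.22% against 14.9%. Keratinocytes were not compared between libraries as a class because a cluster with neutrophil-list genes among its leading genes (cluster 24: BC100530, S100a8 and S100a9) held 996 of 1597 cells in that library. Fibroblasts were compared although they too fell into different clusters, with 2561 of 3116 in cluster 28 in that library.

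Within keratinocytes Ccl2 was uneven. Cluster 13 (led by Sfn and Krt15 among others) had 101 (84.3 to 121), 151 (131 to 173) and 44.6 (35.1 to 55.9) CPM in the first 3 libraries, whereas cluster 5 (Krt1, Mt4 and Krt10) had 3.18 CPM in control untreated and 4.17 CPM in labelled-null untreated skin. Ccl11 showed no such gap, at 5.77, 12.5 and 6.54 CPM in cluster 13 and 4.45 and 7.81 CPM in cluster 5. The 14 immediate early genes, which tissue dissociation can also induce, summed to 25383, 22742 and 21448 CPM in cluster 13. In cluster 5 they summed to 1713 and 1784 CPM in the same untreated libraries, and their part in the Ccl2 gap was not tested. In cluster 24 of labelled-null imiquimod skin Ccl2 was 68.5, Ccl7 53.2, Ccl8 12.7 and Ccl11 4.11 CPM. Ccl2 of keratinocytes rested on few cells, since the highest 1% of the class held 65.7%, 66.4%, 55.1% and 53.7% of it. Fibroblast markers summed to 1920, 1168, 2299 and 806 CPM in keratinocytes, and their part in these levels was not tested.

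T or NK cells and mural cells held few UMIs of these genes outside the labelled-null imiquimod library. Ccl2 was 7.24, 19.0, 15.2 and 149 CPM in T or NK cells and Ccl7 33.1, 44.2, 23.9 and 420.4 CPM. Against its untreated library the labelled-null imiquimod library had 4 of 4 measured members higher in this class, where 12.3% of 6481 genes were higher. Against control imiquimod it also had 4 of 4 higher, where 10.4% of 6193 genes were. None was lower in either comparison, against 8.13% and 7.01% of genes. In the other comparisons 0 of 2 measured members passed 2-fold, where 7.45% and 9.32% of genes were higher and lower for imiquimod in control, and 3.48% and 5.26% for labelled null against control in untreated skin. Fibroblast markers were highest in the same library and summed to 3793, 5667, 2841 and 10441 CPM in T or NK cells. When that library was clustered alone, 29 of its 209 T or NK cells fell among fibroblasts and held 138 of 157 Ccl2, 392 of 444 Ccl7, 126 of 134 Ccl8 and 59 of 62 Ccl11 UMIs. The 173 cells that stayed T or NK had 22.6, 63.7, 11.3 and 4.25 CPM of these genes.

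Mural cells, which wrap small vessels, had 3, 0, 2 and 99 Ccl2 UMIs (6.94, 0, 5.58 and 94.8 CPM). In the labelled null imiquimod gave 3 of 4 measured members higher (Ccl2, Ccl7 and Ccl11), against 10.1% of 6292 genes. Against control imiquimod 2 of 4 were higher (Ccl2 and Ccl11), where 11.2% of 5920 genes were. None was lower in either, against 8.63% and 7.43%. In untreated skin the 1 measured member, Ccl11, was lower in the labelled null, where 3.47% of genes were higher and 4.29% lower. No member was measured for imiquimod in control, where 6.16% of genes were higher and 11.1% lower. With imiquimod in the labelled null, mural Ccl2 was 17.0-fold (4.58 to 142) higher, and Ccl7, at 27.9 and 73.7 CPM, was 2.64-fold (1.36 to 5.73) higher. Fibroblast markers summed to 3932, 1874, 2846 and 2849 CPM in mural cells. In fibroblasts themselves the same markers summed to 107510 and 45344 CPM in the 2 labelled-null libraries. Like sums in mural cells thus do not stand for like shares of fibroblast RNA, and their part in mural Ccl2 and Ccl7 was not tested. Sebocytes numbered 86, 25, 84 and 109 cells and were not compared between libraries. Their Ccl2 was 38.2, 5.59, 4.34 and 59.6 CPM (28, 1, 3 and 72 UMIs). Of the 28 UMIs 24 lay in 1 cell, and 2 cells held 47.2% of the 72.

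Langerhans-like cells were numerous enough to describe only in labelled-null imiquimod skin, with 90 cells. There Ccl2 was 176 CPM, Ccl7 240.4, Ccl8 154 and Ccl11 17.1 CPM, while Ccl12 had 0 UMIs, which allows up to 3.94 CPM. Macrophages of the same library had 869 CPM of Ccl12. Fibroblast markers summed to 4848 CPM in these cells, and their part in the other 4 levels was not tested.

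The receptors lay mainly on leukocytes. Ccr2 was 203, 139, 361 and 69.1 CPM in T or NK cells and 110.0, 73.5, 144 and 40.3 CPM in macrophages or monocytes, against at most 0.988 CPM in fibroblasts. In macrophages under the null label it was 3.57-fold (2.20 to 6.07) lower with imiquimod, and Ccr1, a receptor of Ccl7 and of other CC chemokines, was 7.26-fold (3.48 to 17.0) higher.

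Ccr3, the receptor of Ccl11, was 160.1 CPM in the 29 eosinophil-like cells of control untreated skin, with a UMI in 11 of them, and Ccr1 was 443 CPM. Ccr3 was itself among the markers that gave these cells their name, so its presence there is not a separate result. Macrophages had 2 Ccr3 UMIs in that library and 0 in the others. Eosinophil-like cells were 29 in control untreated and 5 in each of the next libraries, between which fibroblast Ccl11 differed little, and 0 among the 5553 cells of labelled-null imiquimod skin.

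Genes that share inducers with Ccl2 and Ccl7 were read from a list of 13 NF-kB induced partners. In fibroblasts 0 were higher and 2 lower (Cxcl2 and Il6) for imiquimod in control, with a median log2 ratio of -0.28, where 10.1% of all genes were higher and 10.6% lower. Labelled-null fibroblasts had 3 higher and 0 lower, with a median of 0.63, where 5.53% of genes were higher and 17.1% lower. The 3 were Cxcl1, which draws neutrophils, at 4.51-fold (4.01 to 5.10), Cxcl2 at 5.71-fold (4.15 to 8.06) and the NF-kB inhibitor Nfkbia at 2.42-fold (2.35 to 2.49). Under imiquimod 5 of 13 were higher in the labelled null than in control, with a median of 0.91, where 5.07% of genes were higher: Cxcl1 at 7.14-fold, Cxcl2 at 16.7-fold, Il6 at 3.62-fold, Nfkbia at 2.21-fold and Tnfaip3 at 2.01-fold. Between the untreated libraries 0 of 13 passed 2-fold in either direction, with a median of 0.04. The list of 14 immediate early genes had medians of -0.90, -0.46, -0.16 and 0.25 in the 4 comparisons.

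Interferon-stimulated genes had another pattern. In fibroblasts 12 of 12 were higher with imiquimod in control (median log2 ratio 3.57) and 11 of 12 in the labelled null (3.64), against 10.1% and 5.53% of all genes. Under imiquimod 1 of 12 was higher in the labelled null than in control, Isg15 at 2.63-fold (2.49 to 2.77), and the median was -0.18. In macrophages 7 of 8 measured genes were higher in control and 8 of 9 in the labelled null, against 6.39% and 12.1% of all genes. Fibroblast Ccl2 and Ccl7 were near 1-fold in the control library in which all 12 interferon-stimulated genes were higher, and macrophage Ccl12 was higher in both.

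Of 13 cytokine receptors upstream of these chemokines, 4 were higher in control fibroblasts with imiquimod and 6 in the labelled null, against 10.1% and 5.53% of all genes. None was lower, against 10.6% and 17.1%. Osmr, the oncostatin M receptor, was 9.62-fold (7.99 to 11.7) and 5.80-fold (4.91 to 6.90) higher. Il17ra was 3.24-fold (2.82 to 3.75), the interleukin 1 receptor Il1r1 2.54-fold (2.22 to 2.92) and Il4ra 2.27-fold (2.03 to 2.54) higher in the labelled null, against 1.97-fold, 1.19-fold and 0.854-fold in control. Of 10 type 2 genes, 4 and 3 were measured in fibroblasts for imiquimod, of which 0 passed 2-fold in control and 1 was higher in the labelled null, Il33, an alarmin that acts on eosinophils and type 2 lymphocytes. Il33 was 3.54 and 49.4 CPM in the labelled-null pair, a 14.0-fold (10.3 to 19.4) difference, and 3.62 and 5.38 CPM in the control pair.

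The other CC chemokines of macrophages were read from a list of 15. For imiquimod 4 of 11 measured were higher and 2 lower in control, and 5 of 10 higher and 2 lower in the labelled null. Of all genes 6.39% were higher and 12.0% lower in the first comparison, and 12.1% and 10.2% in the second. Ccl5, a T cell attractant, was higher, from 13.2 to 1371 CPM in control (104-fold, 67.4 to 169) and from 24.6 to 1182 CPM in the labelled null (48.0-fold, 30.4 to 80.2). Ccl3 was 2.64-fold and 2.83-fold higher and Ccl4 2.01-fold and 2.16-fold higher. Ccl24, a second eotaxin made by macrophages, was lower, from 83.6 to 10.8 CPM in control and from 76.5 to 22.2 CPM in the labelled null. Ccl22, which acts through Ccr4, was lower in control, with 43 UMIs untreated and 2 with imiquimod (ratio 0.16, 0.0188 to 0.615). It was higher in the labelled null, with 1 and 59 UMIs (ratio 91.7, 15.8 to 3684).

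Genes with the most similar pattern to each member were ranked by Pearson correlation of log2(CPM + 1) over 34 sums of a class in a library, among 12406 genes with at least 200 UMIs. The 34 points share libraries and classes, so the values are descriptions. Ccl2 was most like Ccl7 (0.912), then Hfe (0.876) and Ifi205 (0.851). Ccl7 was most like Ifi205 (0.926), Ccl2 and Npc2 (0.910), and Ccl8 like Slamf8 (0.909), Ccl7 (0.901) and Npc2 (0.893). Ccl11 was most like the collagen gene Col5a2 (0.900), then Cadm3 (0.898) and Gpm6b (0.898). Ccl12 followed the macrophage genes Ms4a7 (0.959), Slamf9 (0.938) and Fcgr4 (0.930). Ccl11 and Ccl12 were the least similar pair of members, at 0.286, and Ccl2 and Ccl7, the closest neighbours on the chromosome, were the most similar. Distance did not order the other pairs: Ccl7 and Ccl11, 10.3 kb apart, had 0.691, and Ccl7 and Ccl8, which are not neighbours, 0.901.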

How the data were processed

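Droplet 3′ libraries (Chromium v2, aiming at 10000 cells and 50000 reads per cell per the labels) gave 1 deposited table of UMI counts for all cells, with Cell Ranger 2.1.0 and mm10 named in the submitters' processing notes. The counts had not been normalized by the authors as far as the values show, and no source used here says whether depth was equalised between libraries. The libraries were told apart by the barcode suffix.

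Barcodes needed 200 or more genes and no more than 10% of UMIs from mitochondrial genes. Scrublet (expected rate 0.05) marked doublets at a fixed threshold of 0.25, because its automatic threshold in labelled-null untreated skin, 0.553, marked only 6 cells (0.113%). It removed 120, 94, 78 and 118 cells, leaving 37331165, 29649307, 31517218 and 55103047 UMIs. Counts were scaled to 10000 per cell, logged, reduced to 2000 variable genes and 30 components, and clustered (scanpy 1.11.5, numpy 2.4.6, 15 neighbours, Leiden resolution 1) into 30 clusters. A cluster could be named by a list, of 24, only where 3 or more markers of the list passed. A marker passed when 2-fold or more higher than elsewhere (10 CPM added) and seen in 10% or more of cells. The list with the most passing markers was not always the one used. Cluster 20 was named upper hair follicle keratinocyte with 6, beside 8 for the suprabasal keratinocyte list. Of 180 markers 4 were not in the gene table.

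Raw counts were summed by class and library. Ratios between libraries are given only for fibroblasts, macrophages or monocytes, T or NK cells and mural cells, and only with at least 50 cells in both libraries. Intervals came from scipy 1.17.1, and edgeR 4.0.16 gave TMM factors as an alternative only. The ratio code was checked on simulated data. All 5 members are named. Other genes are named from 9 lists of 98 genes, by size of ratio, or as the genes most like a member. Some genes of these lists are not reported here. Members and lists were chosen with earlier results of these data known. Alternatives were another scaling, depth, cell filter, clustering and fold.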

Additional observations from a re-analysis of the deposited data

Results flagged for a closer look

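Ccl11 in mural cells had opposite directions between the genotype labels in untreated and imiquimod skin. In untreated skin it was lower in the labelled null, at 11.2 against 39.3 CPM (4 against 17 UMIs), a log2 ratio of -1.82. Under imiquimod it was higher, at 66.0 CPM (69 UMIs) against 0 UMIs in control, at least 4.76-fold against a floor of 3 counts, with a log2 ratio of 2.25 at that floor. The difference between the 2 ratios was not tested, since each rests on single libraries. Few cells carried these UMIs: 2 cells held 64.7% of the 17, and 3 cells held 68.1% of the 69, with 33 in 1 cell. Without the highest 1% of cells the log2 ratios were -0.78 and 0.61, and in cells thinned to 1000 UMIs -1.25 and 0.21, and neither setting kept either call. The untreated call was also lost in cells of at least 3100 UMIs and with the stricter cell filter, and the imiquimod call with no minimum of UMIs. Fibroblast markers, which mark the main Ccl11 source, summed to 3932, 1874, 2846 and 2849 CPM in mural cells in the order control untreated, control imiquimod, labelled-null untreated and labelled-null imiquimod, and their part in it was not tested.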

How the results depend on the processing

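No paired analysis was possible because 1 library stands for each group, and for the same reason no replicate could be left out. Of 33 member ratios past 2-fold, the same direction past 2-fold was found for 33 with doublets kept and 33 at 1.5-fold, for 32 with TMM scaling, 32 with every cell weighted the same and 31 with no minimum of UMIs. It was found for 25 of 32 without the highest 1% of cells, 23 of 31 with at least 500 genes and at most 5% mitochondrial UMIs, 21 of 28 with each library clustered alone, 21 of 23 in cells of at least 3100 UMIs, and 18 of 33 in cells thinned to 1000 UMIs. Thinning leaves fewer counts. TMM moved every fibroblast log2 ratio by 0.25 for imiquimod in the labelled null and by 0.19 for labelled null against control under imiquimod. Ccl2 and Ccl7 in fibroblasts of these comparisons stayed at least 2-fold higher under every alternative run.

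In fibroblasts the 1 member higher with imiquimod in control, and the 1 lower in the labelled null against control under imiquimod, became 0 with thinning and without the highest 1% of cells, and the 3 higher with imiquimod in the labelled null became 2, Ccl2 and Ccl7. Between untreated libraries 0 higher became 1 with no minimum of UMIs. In macrophages the 1 lower with imiquimod in control became 0 with thinning, in cells of at least 3100 UMIs, with the stricter filter and in cells under 1% fibroblast-marker UMIs. For imiquimod in the labelled null, 4 higher became 2 with separate clustering and Langerhans-like cells pooled with macrophages, and 0 lower became 1 with that setting, with pooling alone, TMM, 1.5-fold or at least 3100 UMIs. For labelled null against control, the 1 higher in untreated skin became 0 without the highest 1% of cells. Under imiquimod the 1 higher became 0 with thinning, equal cell weights and both poolings, 2 with the stricter filter, and 3 at 1.5-fold or at least 3100 UMIs, and 0 lower became 1 with thinning, equal weights, 1.5-fold and both poolings. At 1.5-fold 19.7% of genes were higher and 15.4% lower there, and 20.4% were lower for imiquimod in the labelled null. Pooling Langerhans-like cells (11 of 12 kept, or 9 of 12 with separate clustering) and the 1% limit (6 of 7 kept) were chosen after seeing the data.

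Directions turned in these cases. Ccl11 in macrophages with imiquimod in control went to 1.06 under the 1% limit. In T or NK cells of labelled-null skin with imiquimod, Ccl8 went to -0.60 with the stricter filter and -0.63 with separate clustering, and Ccl11 to -1.53 and -1.37. Against control imiquimod Ccl8 went to -0.99 and -0.85, and Ccl11 to -1.41 and -2.00. Apart from the T or NK cells that cluster with fibroblasts, the cause was not tested. Clustered alone, the labelled-null imiquimod library had no macrophage cluster, and the 1% limit left 47 of its macrophages, so those ratios were not computed.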

Other observations

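NF-kB induced genes were called higher most often in mural cells among the 4 classes compared. In the labelled null 11 of 12 measured list genes were higher with imiquimod and 0 lower, with a median log2 ratio of 1.94, beside 10.1% of genes higher and a median of -0.04 over all genes. Cxcl1 was 4817 against 282 CPM, a 17.1-fold (14.0 to 21.0) difference, and Il6 was 2081 against 131 CPM, a 15.9-fold (11.9 to 21.7) difference. Against control imiquimod 9 of 11 were higher, with a median of 1.57, beside 11.2% of genes, and Il6 was 8.49-fold (6.46 to 11.4) higher. In that comparison 9 of 14 immediate early genes were higher too, with a median of 1.29, and with imiquimod in control 12 of 14 were lower. The part of dissociation in these levels was not tested.

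Monocyte genes of macrophages did not share 1 direction. Itgam, an integrin chain of myeloid cells, was 6.88-fold (4.40 to 11.0) higher with imiquimod in control and 13.3-fold (7.45 to 25.7) in the labelled null, while Fn1 was lower in both. Of 7 and 6 measured list genes, 3 and 2 were higher and 2 and 3 lower, beside 6.39% and 12.1% of all genes higher and 12.0% and 10.2% lower. Retnla, a gene of alternatively activated macrophages, was 6.28, 34.6, 162 and 0 CPM in control untreated, control imiquimod, labelled-null untreated and labelled-null imiquimod skin.

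The scavenger Ackr1 was 510.4, 371, 376 and 636 CPM in blood endothelium, of 26 to 80 cells. Ackr2, which removes inflammatory CC chemokines, was 12.0 and 8.81 CPM in untreated lymphatic endothelium (3 and 1 UMIs) and 154 and 153 CPM with imiquimod, control given first. Ccr8, a receptor of mouse Ccl8, was 31.0, 31.6, 47.9 and 8.52 CPM in T or NK cells.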
